A study of Pyrus betulifolia with 6 samples.

Results

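Cytochrome P450 enzymes are heme proteins that insert oxygen into small molecules, and plants carry them in large numbers. The A-type families form a single plant clade, which takes in many enzymes that decorate terpenoids, phenolics, alkaloids, fatty acids and amino acid derivatives. They sit on the endoplasmic reticulum and draw electrons from NADPH-cytochrome P450 reductase, in some reactions with the help of cytochrome b5. In roots, their products include defence compounds and metabolites released around the root.

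The 85 genes described here were chosen by name. They are all genes of the deposited table whose nr description names cytochrome P450 with a family number of the A-type clade. The nr description can list several matches in NCBI's protein collection, and any of them could give the name. Left out were the 3 such genes that KEGG places in phenylpropanoid, flavonoid or stilbenoid synthesis. The table lists 37815 genes in all. Of the 18 family numbers searched, 9 had a member, namely CYP71 (33 genes), CYP82 (14), CYP78 (12), CYP81 (7), CYP89 (7), CYP76 (5), CYP77 (5), CYP93 (1) and CYP703 (1). Another 54 genes are described as a P450 with the letters CYP before the number, and they were not matched by the rule, CYP82 and CYP736 entries among them, so that a family without members here is not thereby absent from the genome. The Pfam domain of cytochrome P450 was given for 82 of the 85 genes. One of the 3 without it, LOC103937556, carries a CYP78A5-like description beside that of a BUB1 kinase, a protein of the spindle checkpoint, and the only domains given for it are of the BUB1 type.

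Root tips of wild-type P. betulaefolia seedlings, a pear used as a rootstock, were collected 24 h after transfer to nutrient solution with 0 mM boron (B deficiency) or kept at 0.045 mM boron (control). Each group has 3 libraries, which the labels call biological replicates, taken from 5 harvested plants per treatment, and the sources used here do not say how the plants were shared out among the libraries. The p-values therefore measure the spread between these libraries. Values are FPKM (fragments scaled to the length of the transcript and to the mapped fragments of the library), so that levels of different genes can be compared.

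The FPKM of all genes added up to 951246 to 971102 per library, with 31364 to 31645 genes above 0. B deficiency library 2 stood apart from its group, with correlations of 0.959 and 0.962 with B deficiency libraries 1 and 3 across the genes tested on the log2(FPKM + 0.1) scale, against 0.976 between libraries 1 and 3 and 0.975 to 0.976 among control libraries. Descriptions chosen for root tips (Casparian strip, PLT, SHORT-ROOT and SCARECROW or scarecrow-like types) matched 73 genes. Their summed level was 713 to 764 FPKM in B deficiency and 683 to 692 FPKM in the control. No gene was described as WUSCHEL-related homeobox 5 or root meristem growth factor. Most of the summed level of the 73 genes came from 58 genes of the SCARECROW or scarecrow-like type (486 to 568 FPKM in B deficiency, 488 to 493 FPKM in the control). The scarecrow-like description alone does not place a gene in the root. Among the 73 genes, the Casparian strip genes summed to 124 to 168 FPKM in B deficiency and 113 to 119 FPKM in the control. In contrast, the PLT genes summed to 32.3 to 34.9 FPKM in B deficiency and 38.2 to 39.1 FPKM in the control. The SHORT-ROOT genes summed to 30.2 to 36.9 FPKM in B deficiency and 43.2 to 44.6 FPKM in the control. For 66 genes of leaf photosynthesis, of which 6 were listed at 0 in every library, the summed level was 627 to 687 FPKM in B deficiency and 670 to 704 FPKM in the control. Most of this sum was Rubisco small subunit (505 to 580 FPKM in B deficiency, 504 to 539 FPKM in the control), and photosystem I reaction center genes summed to 23.7 to 26.6 FPKM in B deficiency and 43.6 to 51.0 FPKM in the control, photosystem II genes to 21.0 to 23.9 FPKM in B deficiency and 45.2 to 50.9 FPKM in the control. Of these leaf genes, 8 of 32 tested were called lower (25.0%) and 0 higher (limma), beside 3.83% lower and 4.37% higher over all genes tested. Of the 73 genes matched by root tip descriptions, 2 of 59 tested were called higher and 0 lower. The 2 were 1 Casparian strip gene and 1 of the SCARECROW or scarecrow-like type. The part of both lists in the P450 results was not tested. In whole root tips, fewer cells of a type and less RNA per cell cannot be told apart.

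The summed level of the A-type P450 genes did not differ between the groups beyond the spread of the libraries, while single members moved far in both directions. The 85 members summed to 1001, 888 and 987 FPKM in B deficiency libraries 1, 2 and 3, against 957, 959 and 966 FPKM in control libraries 1, 2 and 3. The ranges overlapped, and the means (± SD, n = 3 each) were 959 ± 61.5 FPKM under B deficiency and 961 ± 5.09 FPKM under control supply (2-sided exact permutation test, p = 1, where 0.1 is the smallest p possible). Few genes made up this sum. The 3 most expressed members held 45.0% to 48.8% of it in the B deficiency libraries and 45.2% to 45.6% in the control libraries.

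For a test, the FPKM of a gene had to average 0.5 or more over the 6 libraries, and 42 members reached this. Their median level of 9.15 FPKM lay close to the 9.00 FPKM of all 28129 genes tested. A gene was called when limma, fitted over all these genes on log2(FPKM + 0.1), gave an adjusted p (Benjamini-Hochberg) under 0.05 and the log2 fold change was 1 or more in size, which is a 2-fold change. Of the 42 members, 11 were called (26.2%), 6 higher and 5 lower in B deficiency, beside a background of 8.19% over all genes tested (4.37% higher and 3.83% lower). Of the 6 called higher, 2 reached the test minimum only through the B deficiency group, and the other 9 called members had means over the minimum in both groups. Without LOC103937556, the gene with BUB1 domains, it was 10 of 41 (24.4%). By the adjusted p alone, 21 of the 42 members passed (50.0%), 8 higher and 13 lower, beside 27.3% of all genes (12.0% higher and 15.4% lower). The groups did not overlap in 23 members (54.8%), 10 higher and 13 lower, beside 45.1% of all genes (18.5% higher and 26.6% lower). The median log2 fold change was -0.16 over the 42 members and -0.05 over all genes, whereas the median absolute log2 fold change was 0.51 and 0.23. Among P450 genes of other numbered families, 10 of 44 tested genes were called (22.7%), 4 higher and 6 lower. Among the P450 genes written with the letters CYP it was 1 of 24 (4.17%), which was lower, with a median log2 fold change of -0.34. The differences between these sets and the members were not tested.

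**Figure D1:**
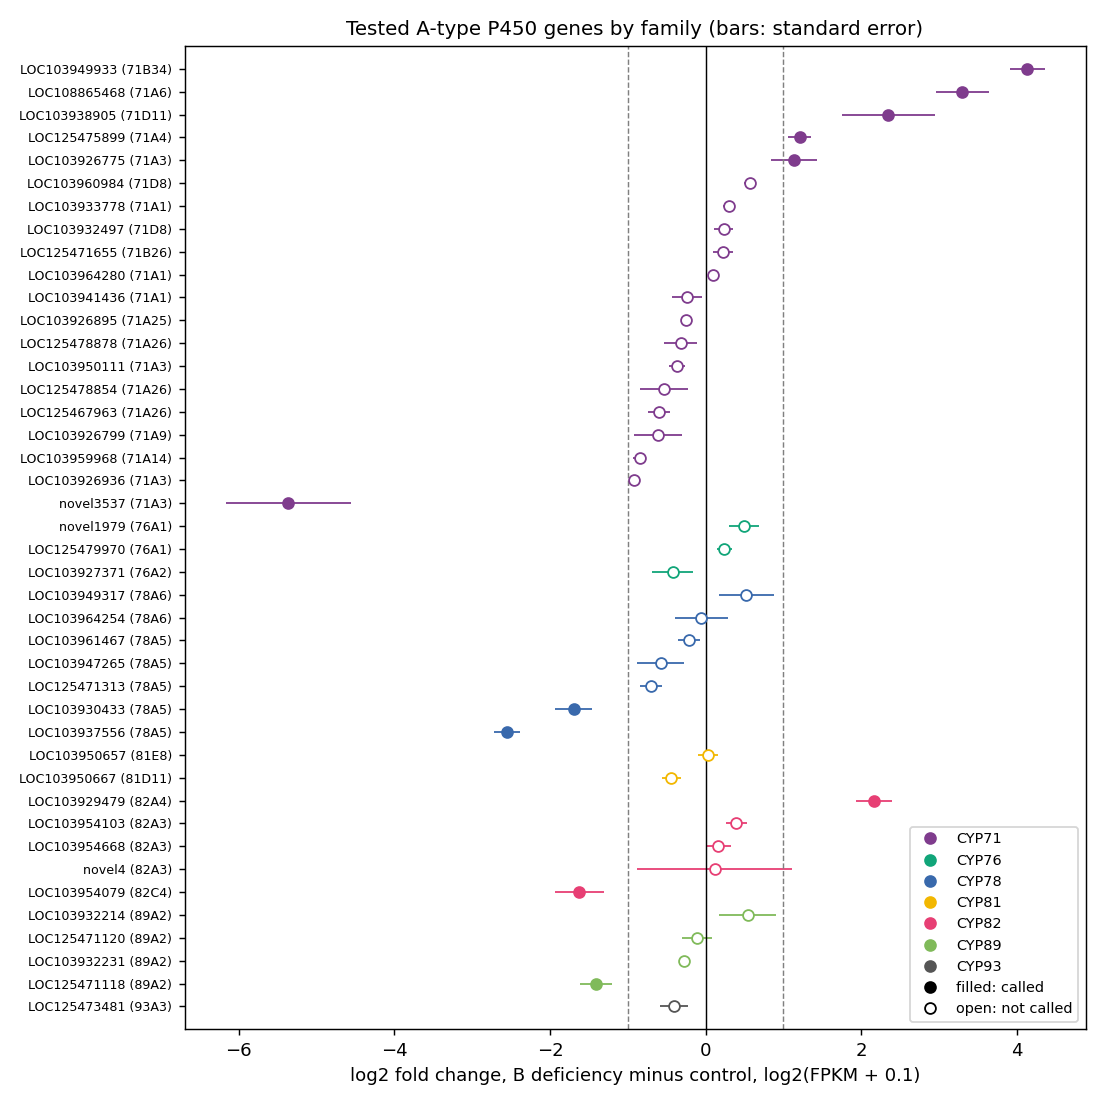
Log2 fold change (B deficiency minus control, on log2(FPKM + 0.1)) of the 42 tested A-type P450 genes, one row per gene, grouped and coloured by family, with the standard error as a bar and called genes filled. The CYP71 genes run from -5.37 to 4.14, and the 4 tested CYP78A5-like genes with a P450 domain lie below 0, as does LOC103937556 with its BUB1 domains.

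CYP71 is the largest family of the clade, with known members in terpenoid, alkaloid, camalexin and cyanogenic glucoside synthesis in other plants. It held 20 of the tested genes, of which 5 were called higher and 1 lower. Over all genes tested, 4.37% were called higher and 3.83% lower. The test minimum favoured a rise in LOC108865468 and LOC103938905, both called higher, which reached it only through the B deficiency group. Another 7 CYP71 genes had an adjusted p under 0.05 but stayed short of the 2-fold limit, 2 of them higher and 5 lower. By the adjusted p alone, 7 of the 20 were higher and 6 lower, beside 12.0% and 15.4% of all genes.

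The largest rise of all members was in LOC103949933, named for CYP71B34, an Arabidopsis enzyme. It had 51.7, 33.6 and 51.0 FPKM in B deficiency libraries 1, 2 and 3, against 2.98, 2.63 and 1.85 FPKM in control libraries 1, 2 and 3. All B deficiency libraries were thus far above all control libraries, and library 2 was the lowest of its group. The log2 fold change was 4.14 (standard error, SE, 0.221, limma adjusted p = 4.2e-05), a 17.6-fold rise, and it stayed between 3.95 and 4.34 with each library left out in turn. A second CYP71B34-like gene, LOC103949839, had 1.02, 0.59 and 0.64 FPKM under B deficiency and 0.08, 0.21 and 0.25 FPKM under control supply, and its mean was too low for the test.

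LOC108865468, a CYP71A6-like gene, had 5.67, 4.02 and 7.17 FPKM in B deficiency libraries 1, 2 and 3, against 0.35, 0.79 and 0.35 FPKM in control libraries 1, 2 and 3. The groups were far apart, and the log2 fold change was 3.30 (SE 0.340, limma adjusted p = 0.000588). Its control mean of 0.497 FPKM is under the test minimum, so this gene entered the test through the B deficiency group. The same holds for LOC103938905, a CYP71D11-like gene with 1.64, 0.82 and 0.83 FPKM under B deficiency and 0.40, 0.05 and 0.05 FPKM under control supply (log2 fold change 2.35, SE 0.598, limma adjusted p = 0.0253). The call of LOC103938905 was lost without B deficiency library 3 (adjusted p = 0.0575), without control library 2 (0.0783) and without control library 3 (0.0781). Without B deficiency library 1 its mean was under the test minimum, so that it was called in 2 of the 6 fits.

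LOC125475899, a CYP71A4-like gene, was well expressed in both groups. It had 59.3, 40.7 and 61.2 FPKM in B deficiency libraries 1, 2 and 3, against 23.3, 22.5 and 22.7 FPKM in control libraries 1, 2 and 3. Library 2 was again the lowest of the B deficiency group but lay above all control libraries, and the log2 fold change was 1.21 (SE 0.149, limma adjusted p = 0.00126), or 1.40 without that library. The rise of LOC103926775, a CYP71A3-like gene, was small, and its call depended on single libraries. It had 1.92, 3.11 and 1.69 FPKM under B deficiency and 0.74, 0.89 and 1.22 FPKM under control supply (log2 fold change 1.13, SE 0.295, limma adjusted p = 0.0274). Here library 2 was the highest of its group. Without it the log2 fold change was 0.88, and the call was also lost without B deficiency library 1 (adjusted p = 0.0553), without control library 1 (0.0893) and without control library 2 (0.0827).

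**Figure D2:**
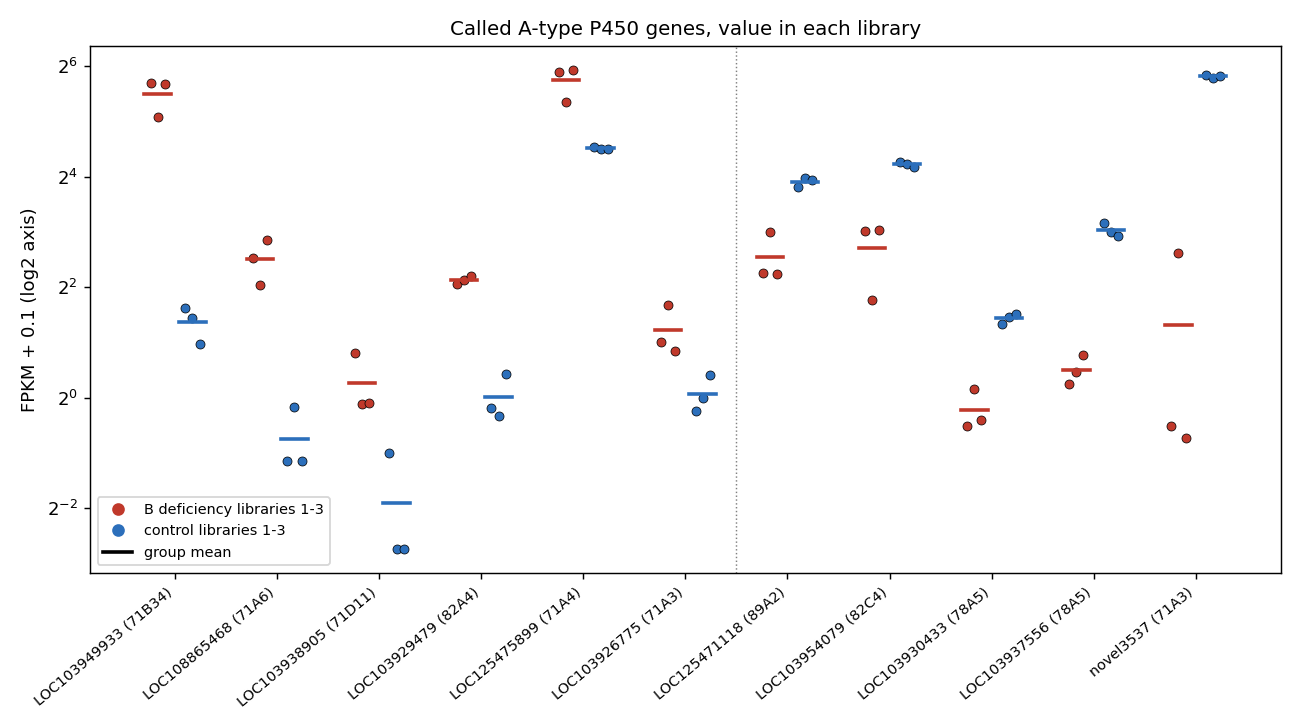
FPKM + 0.1 on a log2 axis for the 11 called members in each library (points, library 1 to 3 from left to right) with the group means (lines), genes that rose left of the dotted line and genes that fell right of it. In no gene do the groups overlap, and novel3537 shows the widest spread among B deficiency libraries, with 0.60, 6.05 and 0.50 FPKM.

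The steepest fall was in novel3537, a locus that the table numbers itself and describes as CYP71A3-like. It had 0.60, 6.05 and 0.50 FPKM in B deficiency libraries 1, 2 and 3, against 57.4, 55.4 and 56.6 FPKM in control libraries 1, 2 and 3. The control libraries were nearly equal, whereas library 2 of B deficiency was about an order of magnitude above the other B deficiency libraries. The log2 fold change was -5.37 (SE 0.806, limma adjusted p = 0.00301), and -6.45 without library 2. In the control this was the best expressed CYP71A3-like gene of the set.

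The CYP71A3-like genes did not move as one. Besides novel3537, which fell, and LOC103926775, which rose, LOC103926936 had 19.6, 18.4 and 20.8 FPKM under B deficiency and 37.5, 36.3 and 37.3 FPKM under control supply. The libraries of a group lay close together, and its log2 fold change of -0.92 (SE 0.0658, limma adjusted p = 0.000129) was larger than the spread but just under the fold limit. In LOC103950111 the log2 fold change was -0.37 (adjusted p = 0.0329). LOC103959968, a CYP71A14-like gene, was also just short of the limit, with 12.1, 10.8 and 10.8 FPKM under B deficiency and 19.6, 21.6 and 19.6 FPKM under control supply (log2 fold change -0.85, limma adjusted p = 0.000399). Of the 3 tested CYP71A26-like genes, LOC125467963 had 3.50, 4.86 and 4.76 FPKM under B deficiency and 6.69, 6.41 and 6.74 FPKM under control supply (log2 fold change -0.60, adjusted p = 0.0202), and the groups overlapped in the other 2, with log2 fold changes of -0.54 and -0.32. Over the 15 tested CYP71A genes the median log2 fold change was -0.32, beside -0.05 over all genes. Of the 15, 3 were called higher and 1 lower, beside 4.37% and 3.83% of all genes tested.

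The most expressed A-type P450 of these root tips was LOC103964280, a CYP71A1-like gene, named for an enzyme of ripening avocado, although the KEGG column places it in CYP92A6. It had 225, 193 and 213 FPKM in B deficiency libraries 1, 2 and 3, against 194, 198 and 197 FPKM in control libraries 1, 2 and 3. The groups overlapped, and the log2 fold change was 0.10 (SE 0.0639, limma adjusted p = 0.314). This gene alone held 21.6% to 22.5% of the summed FPKM of all members in B deficiency and 20.3% to 20.6% in the control. The CYP71D8-like gene LOC103960984, for which the table also gives premnaspirodiene oxygenase, an enzyme of sesquiterpene synthesis, had 43.6, 44.1 and 46.6 FPKM under B deficiency and 27.2, 32.7 and 30.5 FPKM under control supply. It was higher in every B deficiency library, at a log2 fold change of 0.57 (SE 0.0777, limma adjusted p = 0.00197). A second CYP71D8-like gene, LOC103932497, had 48.4, 36.7 and 50.9 FPKM in B deficiency libraries 1, 2 and 3, against 38.1, 38.1 and 38.4 FPKM in control libraries 1, 2 and 3. Here library 2 lay below the control, so the groups overlapped (log2 fold change 0.23, limma adjusted p = 0.191). All 3 tested CYP71D genes had positive log2 fold changes, beside 12065 of all 28129 genes tested. The test minimum favoured this sign in LOC103938905, which reached it only through the B deficiency group.

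CYP78 genes act in organ growth. In Arabidopsis, CYP78A5 (KLUH) keeps cells of growing organs dividing, and CYP78A6 affects seed size. Leaving aside LOC103937556 with its BUB1 domains, 4 CYP78A5-like genes were tested, and all 4 had negative log2 fold changes (median -0.64), beside 57.1% of all genes tested. Of the 4, 1 was called lower, beside 3.83% of all genes tested. By the adjusted p alone, 2 of the 4 were lower, beside 15.4% of all genes. The 4 genes are too few to set against these shares. No CYP78 entry was called higher, beside 4.37% of all genes tested, and 7 of the 12 were tested.

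LOC103930433, a CYP78A5-like gene, had 0.60, 1.02 and 0.65 FPKM in B deficiency libraries 1, 2 and 3, against 2.43, 2.65 and 2.77 FPKM in control libraries 1, 2 and 3. All B deficiency libraries lay below all control libraries, and the log2 fold change was -1.70 (SE 0.239, limma adjusted p = 0.0023). LOC125471313 had 4.88, 6.55 and 6.68 FPKM under B deficiency and 10.4, 8.83 and 10.2 FPKM under control supply, a log2 fold change of -0.70 (adjusted p = 0.0107) that is under the fold limit. LOC103937556, the entry with BUB1 domains, had 1.08, 1.27 and 1.60 FPKM under B deficiency and 8.89, 7.94 and 7.53 FPKM under control supply (log2 fold change -2.55, SE 0.168, limma adjusted p = 9.2e-05). Its value cannot be read as that of a P450 gene.

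The family's level rested on another gene. LOC103961467, also CYP78A5-like, had 113, 163 and 113 FPKM in B deficiency libraries 1, 2 and 3, against 146, 147 and 151 FPKM in control libraries 1, 2 and 3. Libraries 1 and 3 of B deficiency lay below the control and library 2 above it, so that the log2 fold change was -0.21 (SE 0.138, limma adjusted p = 0.302) and -0.39 without library 2. Both CYP78A6-like genes tested had values under 2 FPKM and groups that overlapped.

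**Figure D3:**
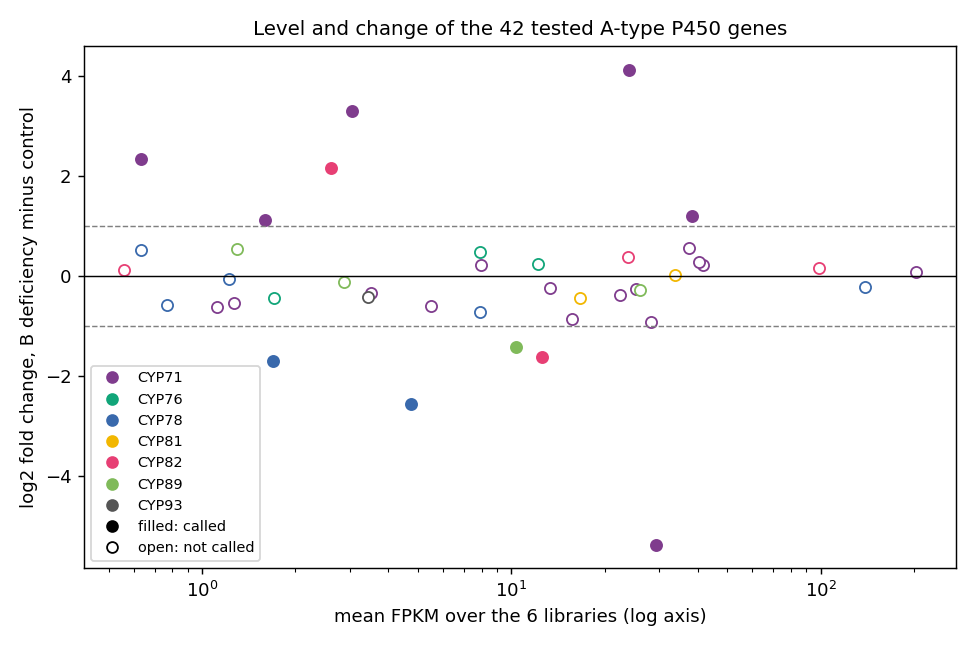
Log2 fold change of the 42 tested members against their mean FPKM over the 6 libraries (log axis), coloured by family, with called genes filled and the 2-fold limit dashed. Of the 11 called genes, 6 lie under 10 FPKM, as do 21 of the 42 tested genes. None of the called genes reaches 100 FPKM, which only 2 of the 42 do.

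CYP82 enzymes include CYP82C4, which in Arabidopsis hydroxylates the coumarin fraxetin to sideretin in iron-deficient roots, and CYP82G1, which there makes volatile homoterpenes, while the CYP82A genes are named after soybean. Of the 5 tested CYP82 genes, 1 was called higher and 1 lower, beside 4.37% and 3.83% of all genes tested. These genes are too few to set against those shares. LOC103929479, a CYP82A4-like gene, had 4.08, 4.29 and 4.52 FPKM in B deficiency libraries 1, 2 and 3, against 0.78, 0.69 and 1.25 FPKM in control libraries 1, 2 and 3. The groups were well separated and all B deficiency libraries agreed closely (log2 fold change 2.17, SE 0.231, limma adjusted p = 0.000675). Its log2 fold change stayed between 2.01 and 2.40 with each library left out in turn.

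The CYP82C4-like gene LOC103954079 went the other way. It had 8.01, 3.29 and 8.08 FPKM under B deficiency, against 19.1, 18.7 and 18.04 FPKM under control supply. Library 2 was the lowest, and the fall (log2 fold change -1.62, SE 0.320, limma adjusted p = 0.00953) remained called without it, at -1.20. The second CYP82C4-like gene, LOC125478216, lacks the P450 domain, did not exceed 0.67 FPKM in any library and was not tested. The best expressed CYP82 gene was LOC103954668, a CYP82A3-like gene with 120, 77.7 and 118 FPKM under B deficiency and 95.7, 88.3 and 92.3 FPKM under control supply. Libraries 1 and 3 were above the control and library 2 below it, so the groups overlapped (log2 fold change 0.16, limma adjusted p = 0.488). LOC103954103, also CYP82A3-like, had 30.1, 21.2 and 30.4 FPKM in B deficiency libraries 1, 2 and 3, against 20.6, 19.6 and 20.99 FPKM in control libraries 1, 2 and 3. Library 2 was barely above the control, and the log2 fold change was 0.40 (limma adjusted p = 0.074). None of the 5 CYP82G1-like genes reached the test minimum.

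The name CYP89A2 comes from an Arabidopsis gene. Of the 7 CYP89A2-like genes, 4 were tested and 1 was called, which was lower, beside 3.83% called lower over all genes tested. The 4 genes are too few to set against that share. LOC125471118 had 4.65, 7.91 and 4.60 FPKM in B deficiency libraries 1, 2 and 3, against 14.0, 15.6 and 15.2 FPKM in control libraries 1, 2 and 3, a log2 fold change of -1.41 (SE 0.204, limma adjusted p = 0.00256). Each B deficiency library was clearly below the control, library 2 least so. The most expressed gene of the family, LOC103932231, had 25.4, 23.9 and 21.7 FPKM under B deficiency and 28.0, 29.4 and 28.1 FPKM under control supply (log2 fold change -0.27, adjusted p = 0.0311). The summed level of the 7 genes was lower in every B deficiency library (34.8, 38.6 and 30.2 FPKM) than in the control libraries (46.5, 50.0 and 47.4 FPKM), which gives an exact 2-sided permutation p of 0.1, the smallest that 3 against 3 libraries allow. The sums of the other families were tested in the same way, without adjustment for their number.

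The remaining families held no gene called by limma, with 2 of 3 CYP76 genes, 1 of 2 CYP81 genes and 0 of 1 CYP93 genes at an unadjusted p under 0.05, beside 39.5% of all genes. CYP81 enzymes hydroxylate isoflavonoids in legumes (CYP81E) and respond to xenobiotics in Arabidopsis (CYP81D11). The CYP81D11-like gene LOC103950667 had 15.2, 11.8 and 15.7 FPKM under B deficiency and 17.3, 20.1 and 20.2 FPKM under control supply (log2 fold change -0.44, limma adjusted p = 0.0388). The groups did not overlap, but the difference was short of the fold limit. The CYP81E8-like gene LOC103950657 had 37.0, 27.4 and 38.9 FPKM under B deficiency and 34.0, 33.7 and 32.1 FPKM under control supply, and its log2 fold change of 0.03 changed sign without B deficiency library 1 (-0.03) or library 3 (-0.062).

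CYP76 enzymes oxidise monoterpenols in several plants. LOC125479970, a CYP76A1-like gene, had 13.3, 12.5 and 13.6 FPKM under B deficiency and 11.6, 12.0 and 9.81 FPKM under control supply (log2 fold change 0.24, limma adjusted p = 0.114). The other tested CYP76 genes, novel1979 and LOC103927371, had log2 fold changes of 0.49 (adjusted p = 0.102) and -0.42 (adjusted p = 0.28), and their groups overlapped. The summed level of the 5 CYP76 genes was 25.4, 21.7 and 24.4 FPKM in B deficiency libraries 1, 2 and 3, against 20.7, 19.7 and 19.6 FPKM in control libraries 1, 2 and 3. It was higher in every B deficiency library (2-sided exact permutation p = 0.1, the smallest possible). The same permutation test on family sums gave p = 0.1 for CYP89, 0.2 for CYP93, 0.3 for CYP77 and 0.4 for CYP71 and CYP78. It gave 0.6 for CYP82 and 0.8 for CYP81, and no p was adjusted for the number of families. The CYP93A3-like gene LOC125473481 had 3.30, 2.43 and 3.06 FPKM under B deficiency and 3.21, 4.55 and 4.01 FPKM under control supply (log2 fold change -0.41, adjusted p = 0.141).

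**Figure D4:**
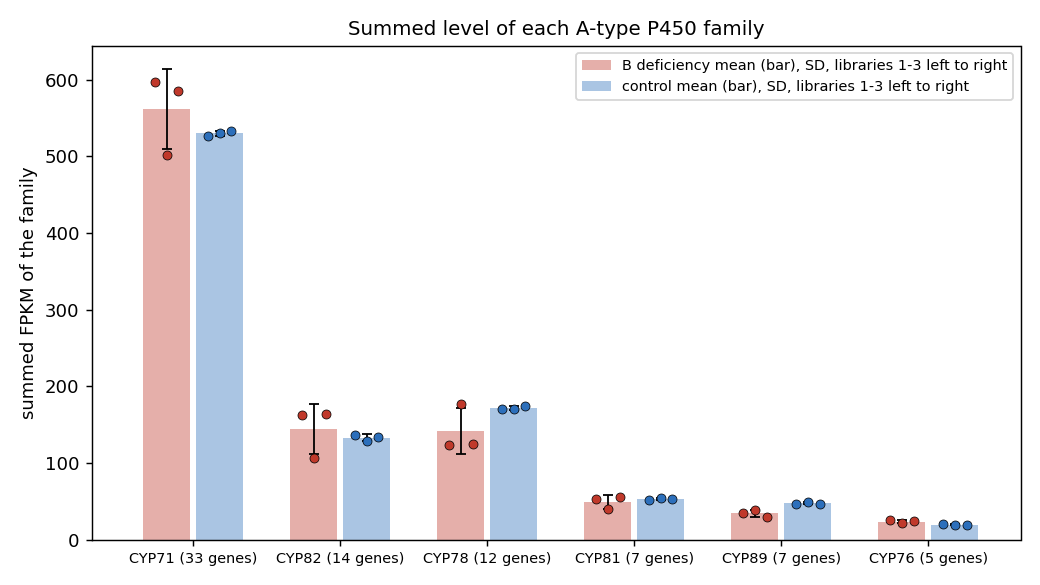
Summed FPKM of the members of 6 families in each library (points, library 1 to 3 from left to right), with the group mean as a bar and the SD as an error bar. The CYP82 sum of B deficiency library 2 is 107 FPKM against 163 and 164 FPKM in libraries 1 and 3, and its CYP78 sum is 177 FPKM against 124 and 125 FPKM.

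In the summed levels, B deficiency library 2 was the lowest of its group for CYP71, CYP76, CYP81, CYP82 and CYP93. It was the highest for CYP77, CYP78 and CYP89. Members did not all follow their family, and in CYP71 it was the lowest for LOC103949933 but the highest for LOC103926775. Library 2 was the lowest of its group in 21 of the 42 tested members and the highest in 13. The same shares over all genes were not computed. For CYP71 the summed level was 597, 501 and 585 FPKM in B deficiency libraries 1, 2 and 3, against 526, 531 and 533 FPKM in the control, so that library 2 was the only B deficiency library below the control libraries. Without library 2, 5 members were called higher and 5 lower, beside 1273 and 1259 of all genes.

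Below the test minimum lay 43 members, 11 of them listed at 0 in every library. They include the only CYP703 gene, a CYP703A2 entry known from pollen wall formation in Arabidopsis, and all 5 CYP77 genes, whose enzymes oxidise fatty acids for cutin. The highest single value among the 43 was 1.34 FPKM, in B deficiency library 1 for the CYP78A6-like gene LOC103940181. The most expressed CYP77 genes were LOC125478280 and LOC125480857, which carry the same CYP77A3-like description and the same values in every library, 0.12, 0.24 and 0.09 FPKM under B deficiency and 0.02, 0.04 and 0.02 FPKM under control supply. Their sequences were not compared here. When all genes above 0 in any library were tested instead (background 8.13% called), 4 of these low members passed both thresholds, and they were picked out after their values had been seen. LOC103949839 (CYP71B34-like, log2 fold change 1.62), LOC103940181 (2.06) and LOC103932212 (CYP89A2-like, 2.09) were higher, and LOC103940018 (CYP82G1-like, -1.01) was lower.

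Genes of the electron donors were not among those called by limma, but they are too few to set against the 8.19% called over all genes. At an unadjusted p under 0.05 there were 2 of 4 reductase genes and 5 of 10 cytochrome b5 genes, beside 39.5% of all genes. All 4 NADPH-cytochrome P450 reductase genes were tested and none was called, with log2 fold changes from -0.26 to 0.21. The most expressed, LOC125473805, had 96.5, 97.7 and 94.8 FPKM under B deficiency and 81.7, 84.1 and 84.9 FPKM under control supply (log2 fold change 0.21, limma adjusted p = 0.0149). The text match on cytochrome b5 found 23 genes, of which 17 were tested and 0 were called, but 12 of the 23 are b561 or desaturase entries. Of the other 11 genes, 10 were tested and 0 were called, with log2 fold changes from -0.62 to 0.25 and a median of 0.01 beside -0.05 over all genes. At an adjusted p under 0.05, 1 was higher and 3 were lower, beside 12.0% and 15.4% of all genes. The most expressed of the 10 was LOC103927209, with 412, 411 and 414 FPKM under B deficiency and 395, 387 and 365 FPKM under control supply (log2 fold change 0.11, limma adjusted p = 0.13).

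Enzymes of routes in which A-type P450 enzymes take part were read for comparison. Whether any of the 85 members acts in these routes was not tested. Limma called none of the route enzymes, beside 8.19% of all genes, and they are few. At an unadjusted p under 0.05 there were 6 of 10 genes of gibberellin synthesis, 2 of 4 of biphenyl synthase and 1 of 3 of cyanogenic compounds, beside the 39.5% of all genes. In gibberellin synthesis, a hormone route that needs P450 steps, 10 of 21 genes were tested and 0 were called (median log2 fold change -0.23). At an adjusted p under 0.05, 1 was higher and 4 were lower, beside 12.0% and 15.4% of all genes. The best expressed gene of this route, the ent-kaurenoic acid oxidase LOC103948777, had 87.8, 79.5 and 87.8 FPKM under B deficiency and 137, 132 and 133 FPKM under control supply (log2 fold change -0.66, limma adjusted p = 0.000256). The groups were clearly apart, at less than the fold limit. Biphenyl synthase starts the biphenyl phytoalexins of the apple and pear tribe. All 4 of its genes were tested and none was called, although LOC103945212 came close with 0.37, 0.48 and 0.40 FPKM under B deficiency and 0.87, 0.91 and 0.93 FPKM under control supply (log2 fold change -0.96, adjusted p = 0.0445). LOC103946758, the best expressed of these, had 35.2, 19.4 and 33.4 FPKM under B deficiency and 19.1, 22.5 and 20.03 FPKM under control supply, and library 2 was the only B deficiency library within the control range. Of 10 genes of cyanogenic compound breakdown, 3 were tested and 0 were called, and the most expressed, the mandelonitrile lyase LOC108867073, had 200, 137 and 204 FPKM under B deficiency and 166, 168 and 165 FPKM under control supply.

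The A-type genes left out for their pathway were CYP84A1-like, the ferulate 5-hydroxylase of lignin synthesis. Of these 3 genes 2 were tested, LOC103930975 and LOC103938031, with log2 fold changes of -0.39 (adjusted p = 0.00464) and -0.31 (limma adjusted p = 0.00541), and neither was called.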

How the data were processed

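RNA of root tips was sequenced in 3 B deficiency and 3 control libraries. The authors mapped the reads with STAR to P. bretschneideri and used RSEM to estimate FPKM per gene, and the deposited FPKM values are rounded to 2 decimals. They come in 2 tables with the same values, 1 of them annotated. The submitters' processing notes list HISAT2, Cufflinks 2.2.1, DESeq2 and mouse genome builds instead. Neither source names the release of the gene models. Control columns were assigned by the replicate numbers in the labels. Left unused were 4 columns of group means and ratios by the authors and 1010760 lines that hold no gene.

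Members were found by a text match on the nr description and grouped by family number, of which no member named several. Members, lists and tests were chosen with earlier results of these data known. B deficiency was compared with the control in limma 3.58.1 (R 4.3.3; lmFit, eBayes with a trend) on log2(FPKM + 0.1) without covariates, for 28129 genes that averaged 0.5 FPKM or more, with Benjamini-Hochberg adjustment over all of them. This scale understates the fold change of low genes. The authors tested counts with DESeq2. Counts and the mapped totals of the libraries were not used here, and no counting interval is given. The fit was tested on simulated data. RSEM estimates how reads of similar copies are shared, which makes values of close family members less certain.

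Named members were up to 15 rises and 10 falls, by size, of called genes without overlap of the groups, the best expressed gene of each family, all tested genes of families with up to 3 of these, and up to 5 genes on either side of the fold limit. Other members were named after their values had been seen. Positions and sequences were not used here. Alternatives were other pseudocounts and minimum levels, 2 scalings between libraries, no trend, weighted libraries, a replicate block, no minimum fold, other member rules and each library left out. Other steps ran in Python 3.11.15 with numpy 2.4.6 and pandas 2.3.3.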

Additional observations from a re-analysis of the deposited data

How the results depend on the processing

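Between 4 and 6 members were called higher, and 5 lower, with another pseudocount, a minimum of 1 FPKM, another scaling, no trend, library weights, the replicate block (5 higher and 5 lower) or a library left out. Over all genes, the same settings gave 896 to 1337 higher and 664 to 1267 lower. Without a minimum level, 9 members were called higher and 6 lower, beside 1503 and 1248 of all genes. Without a minimum fold it was 8 and 13 members, beside 3362 and 4331 of all genes. When the 3 entries without a P450 domain were left out, a choice made after seeing the data, it was 6 and 4. With log2(FPKM + 1), 664 of all genes were called lower, against 1076. The median log2 fold change of the members was 0.13 without a minimum level, against -0.16, and lay between -0.20 and -0.0070 with a library left out (-0.0070 without control library 2). The log2 fold change of LOC103950657, 0.03 over all libraries, was -0.03, 0.19 and -0.062 without B deficiency library 1, 2 and 3. Of the 11 called members, 9 stayed called whichever of the 6 libraries was left out. LOC103926775 was also lost with log2(FPKM + 1), log2(FPKM + 0.5), library weights and the replicate block (adjusted p = 0.0518 from limma), and LOC103938905 with log2(FPKM + 1). With a minimum of 1 FPKM, or without B deficiency library 1, LOC103938905 was below the minimum and was not tested. The cause of these changes was not tested. Libraries with the same number did not deviate together (correlations 0.040, 0.035 and -0.0048). Whether they were grown or prepared together cannot be told from this. The deposited FPKM tables hold no counts, and the counting error of low values was not estimated.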

Other observations

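For 15 members, all of them described as CYP71A, the KEGG column gives CYP17A, the name of a steroid hydroxylase of animals. Of the 11 called members, LOC108865468, LOC125475899, LOC103926775 and novel3537 carry this name. For LOC103964280, the most expressed member, and LOC103933778, both described as CYP71A1-like, it gives CYP92A6, of a family that no nr description of the members names, and for LOC103932231, described as CYP89A2-like, it gives CYP1A2, a name used for animals.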
